A study of Danio rerio with 6 samples.

Results

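Cxcl12 is a chemokine, a small secreted protein that attracts cells, and Cxcr4 is the receptor through which cells sense it. Zebrafish carry 2 genes for each, the ligand genes cxcl12a (older name sdf1a) and cxcl12b (older name sdf1b) and the receptor genes cxcr4a and cxcr4b. All 4 were on the array used here, and every probe set that names one of them alone was taken, which gave 5 of the 15502 probe sets tested. Gene cxcl12a has a pair of probe sets, called S3 and S2 here after the ends of their identifiers, and the other genes have 1 each.

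RNA came from adult zebrafish carrying the tg(jam1a:EGFP) transgene, in which the promoter of the tight junction gene jam1a drives the green fluorescent protein EGFP, and all 3 groups share this transgene. Irradiated collecting ducts were dissected from fish given 25 Gy of X-rays, unirradiated collecting ducts from fish without irradiation, and whole kidney served as the tissue for comparison. Each group had 2 arrays, each array held RNA pooled from 5 fish, and neither the exact age nor the time from irradiation to dissection is known from the labels. The ducts were picked under a fluorescence microscope, and the labels name no cell sort that would remove cells attached to them.

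In blood-forming tissue, stromal cells secrete Cxcl12, and blood stem cells and many leukocytes carry Cxcr4 and are held near the source. The kidney of fish is the adult site of blood formation, with the stem cells lying among the renal tubules. Cxcr4 signals through inhibitory G proteins to kinases and small GTPases that move the cell, while the atypical receptor Ackr3 binds Cxcl12 and removes it. In zebrafish embryos, Cxcl12a and Cxcr4b guide germ cells and the lateral line primordium.

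Levels are log2 RMA values, on which a difference of 1 is a doubling, and they are compared between arrays for 1 probe set, never between probe sets. The medians of the arrays lay between 5.82 and 5.88, and levels near or under them are not shown to be above background. Whole kidney arrays differed more from each other (root mean square SD over all probe sets 0.465) than irradiated (0.250) or unirradiated duct arrays (0.246). As a check of RNA integrity, the GAPDH control probe set at the 3' end exceeded that at the 5' end by 1.16 and 2.52 in unirradiated ducts. The gap was 1.13 and 0.97 in irradiated ducts and 0.55 and 0.91 in whole kidney. Unirradiated replicate 2 thus stood apart, and values without this array are given below. The spiked-in hybridisation controls averaged 9.39 and 9.64 in irradiated ducts, 10.66 and 11.15 in unirradiated ducts, and 8.48 and 10.24 in whole kidney. Centring each array on these controls adds 1.39 to every log2 fold change of irradiated against unirradiated ducts, takes 1.55 from those of unirradiated ducts against kidney and 0.158 from those of irradiated ducts against kidney, so any smaller difference of the opposite sign turns. All directions given are therefore relative to the median transcript. The duct label was checked with 11 duct and distal tubule markers, whose mean level was 10.42 and 10.16 in irradiated ducts, 10.10 and 9.90 in unirradiated ducts, and 7.86 and 8.37 in whole kidney. The jam1a gene, now named f11r.1 and among these 11 markers, exceeded its whole kidney level 2.28-fold in unirradiated ducts (limma log2 fold change 1.19 ± 0.16 SE, adjusted p = 0.0172). Its promoter drives the EGFP by which the ducts were picked, so this is no independent check, and the value turns with the centring.

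**Figure D1:**
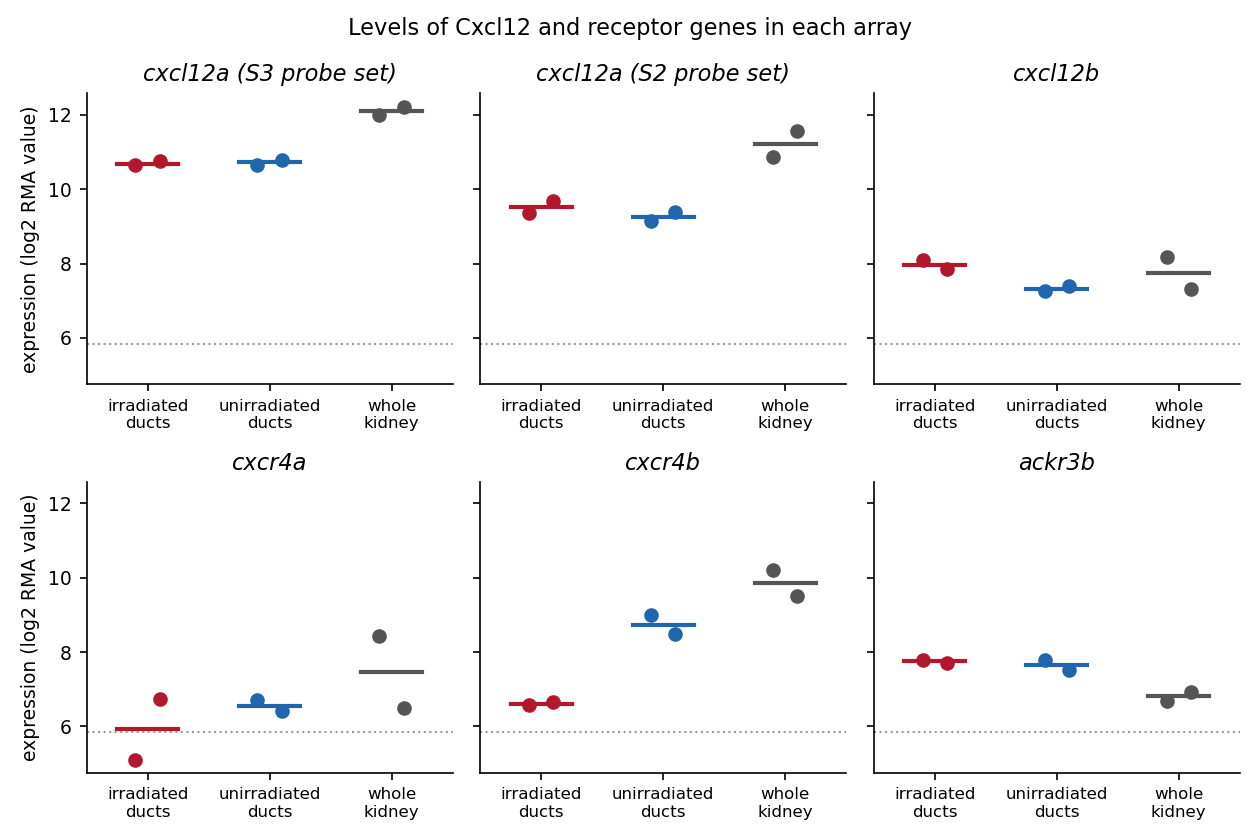
Log2 RMA values (vertical axis) of the 5 member probe sets and of ackr3b in irradiated ducts, unirradiated ducts and whole kidney, with 1 point per array, a bar at the mean of 2 arrays and a dotted line at the mean array median. The points of cxcr4b stand at 3 separate heights, from 6.58 and 6.65 in irradiated ducts to 10.22 and 9.51 in whole kidney, while both cxcl12a probe sets overlap between the duct groups and are higher in whole kidney.

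The ligand cxcl12a was lower in the ducts than in the whole organ. Its probe set S3 read 10.64 and 10.75 in irradiated ducts, 10.64 and 10.80 in unirradiated ducts, and 12.00 and 12.22 in whole kidney. Its probe set S2 read 9.37 and 9.69 in irradiated ducts, 9.14 and 9.39 in unirradiated ducts, and 10.88 and 11.56 in whole kidney. Both probe sets put all 4 duct arrays under both kidney arrays.

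Unirradiated ducts held 2.62-fold less cxcl12a than whole kidney by probe set S3 (log2 fold change -1.39 ± 0.17 SE, adjusted p = 0.0137). By probe set S2 the difference was 3.88-fold (-1.96 ± 0.28, adjusted p = 0.0197). These were the only 2 of the 5 member probe sets past the threshold in this comparison, an adjusted p under 0.05, and both were lower, against 2.99% of all probe sets called lower and 7.26% called in either direction. Without unirradiated replicate 1 or 2, which leaves a lone duct array assumed to vary like the others, the adjusted p of probe set S3 was 0.102 and 0.0907, and that of probe set S2 was 0.127 and 0.111. On these groups alone, or without either irradiated array, probe set S2 had an adjusted p of 0.0502.

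Irradiated ducts held 2.67-fold less cxcl12a than whole kidney by probe set S3 (-1.42 ± 0.17, adjusted p = 0.00839) and 3.23-fold less by probe set S2 (-1.69 ± 0.28, adjusted p = 0.0194). This comparison shares its kidney arrays with the one before, so the pair of results is not independent. Centring on the hybridisation controls kept the directions and ended both calls (adjusted p of 0.788 and 0.515), as did leaving out irradiated replicate 1 (0.0692 and 0.123) or 2 (0.0625 and 0.0862). For probe set S2 the adjusted p was also 0.0562 on these groups alone and without either unirradiated array.

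Between the duct groups themselves cxcl12a differed by less than its standard error. Irradiated minus unirradiated ducts gave -0.03 ± 0.17 for probe set S3 (adjusted p = 0.958), with a 95% interval of -0.44 to 0.39. For probe set S2 it gave 0.27 ± 0.28 (adjusted p = 0.699) with an interval of -0.41 to 0.94. The arrays of both groups overlapped on each probe set. The interval of probe set S3 leaves out a 2-fold change either way on this scale, and with the arrays centred on the hybridisation controls the value was 1.36 (adjusted p = 0.202).

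The second ligand gene, cxcl12b, encodes a closely related chemokine, and its values spanned 0.938 on the log2 scale over the 6 arrays. It read 8.09 and 7.85 in irradiated ducts, 7.25 and 7.39 in unirradiated ducts, and 8.19 and 7.33 in whole kidney. Both irradiated arrays lay above both unirradiated arrays, and the kidney arrays spanned nearly the whole range. Irradiated minus unirradiated ducts was 0.65 ± 0.30 (adjusted p = 0.402, 95% interval -0.09 to 1.39). Unirradiated ducts minus kidney was -0.44 ± 0.30 (adjusted p = 0.403), and irradiated ducts minus kidney was 0.21 ± 0.30 (adjusted p = 0.728). Which kidney array was used decided the second of these values, since without kidney replicate 2 it was -0.87 (adjusted p = 0.0313) and without replicate 1 it was -0.004.

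The receptor cxcr4b had the widest range of the 4 genes across the arrays, 3.65 on the log2 scale. It read 6.58 and 6.65 in irradiated ducts, 9.01 and 8.48 in unirradiated ducts, and 10.22 and 9.51 in whole kidney. No group overlapped another, and the order was irradiated ducts, unirradiated ducts, whole kidney. In irradiated ducts the signal was less than 1 log2 unit above the array medians, so the fold changes that involve this group may be limited by background signal.

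The ends of this order differed past the threshold and the neighbours did not. Irradiated ducts held 9.52-fold less cxcr4b than whole kidney (-3.25 ± 0.30, adjusted p = 0.00428). In the 13 alternatives run, leaving out an unirradiated array is the same fit as these groups alone. The call held in all of them, and its value lay between -3.61 and -2.89. With the 2 cxcl12a probe sets this made 3 of the 5 member probe sets called lower in irradiated ducts against kidney, where 4.24% of all probe sets were called lower. Irradiated minus unirradiated ducts was -2.13 ± 0.30 (adjusted p = 0.102, unadjusted p = 0.00044), which is 4.38-fold, with a 95% interval of -2.87 to -1.39. Unirradiated ducts minus kidney was -1.12 ± 0.30 (adjusted p = 0.082), or 2.18-fold.

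No member passed in irradiated against unirradiated ducts, where 0.168% of all probe sets were called (26, with 2212 at an unadjusted p under 0.05), and of the members only cxcr4b had an unadjusted p under 0.05. It ranked 66th of 15502 probe sets by p, and 35 had a lower log2 fold change. With the irradiated and unirradiated ducts fitted alone, or with either kidney array left out, its adjusted p was 0.0233, these being the same fit, and with array weights it was 0.0181. With the arrays centred on the hybridisation controls, the difference was -0.74 (adjusted p = 0.386). Of the 13 alternatives for cxcr4b here 4 passed, and no fit without a duct array was among them. Without unirradiated replicate 1 or 2 the value was -1.863 and -2.396. Without irradiated replicate 1 or 2 it was -2.094 and -2.165. In this comparison 2 of the 5 member probe sets did not overlap between the groups, cxcl12b above and cxcr4b below, against 56.8% of all probe sets. In unirradiated ducts against kidney 3 of 5 did not overlap, against 56.6% of all, and in irradiated ducts against kidney 3 of 5, against 55.3%, which are near those backgrounds.

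**Figure D2:**
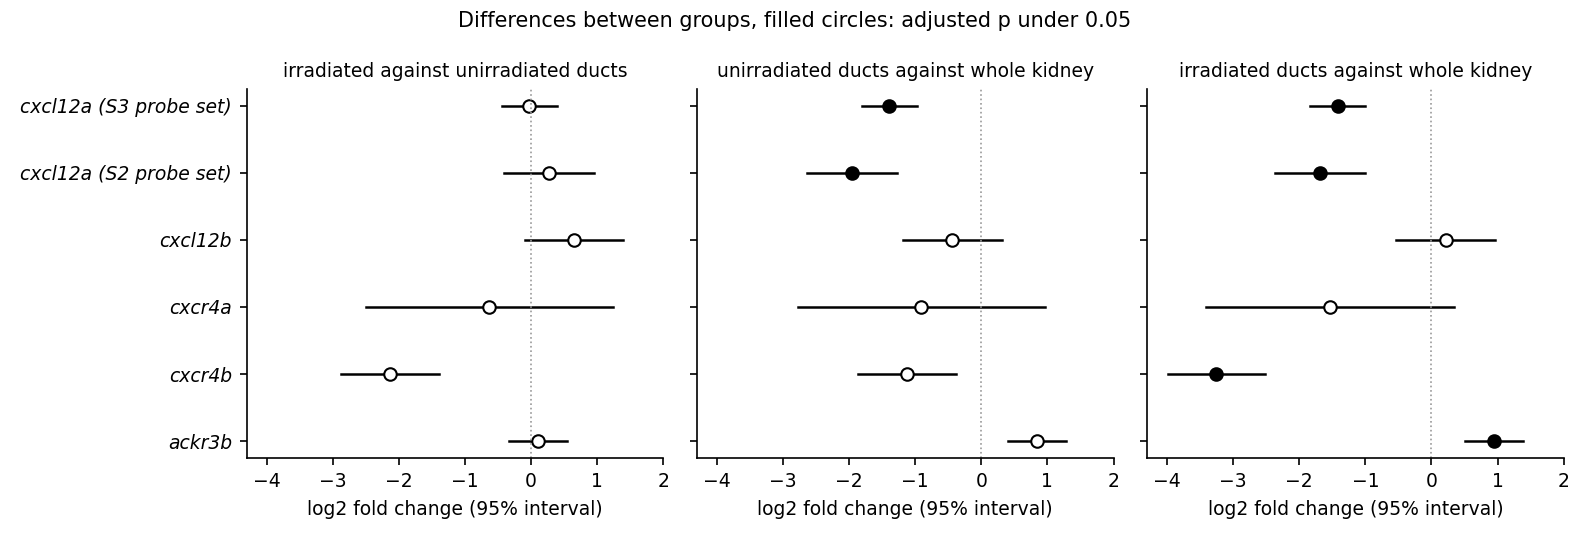
Log2 fold changes (horizontal axis, first-named group over the second) with their 95% intervals from limma for the 5 member probe sets and ackr3b in the 3 comparisons, with filled circles where the adjusted p is under 0.05. The cxcr4b interval lies left of 0 in all 3 panels and its circle is filled only for irradiated ducts against kidney, where its value is -3.25; with centring on hybridisation controls the values of cxcl12a (probe set S3) and cxcr4a between the duct groups and of ackr3b in unirradiated ducts against kidney turn sign.

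The other receptor gene, cxcr4a, gave no stable order. It read 5.11 and 6.75 in irradiated ducts, 6.70 and 6.42 in unirradiated ducts, and 8.43 and 6.50 in whole kidney. The SD was 1.16 in irradiated ducts, 0.203 in unirradiated ducts and 1.37 in whole kidney (n = 2 each), and every group overlapped every other. Irradiated minus unirradiated ducts was -0.63 ± 0.76 (adjusted p = 0.744), and the 95% interval of -2.50 to 1.24 allows a large change in either direction. Unirradiated ducts minus kidney was -0.91 ± 0.76 (adjusted p = 0.489) and irradiated ducts minus kidney -1.54 ± 0.76 (adjusted p = 0.272). Without kidney replicate 1 the value for unirradiated ducts minus kidney was 0.061, so that its sign rests on that array. Between the duct groups the value was 0.19 without irradiated replicate 1 and 0.76 with centring on the hybridisation controls.

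The scavenger receptor gene ackr3b, whose product takes up Cxcl12 without moving the cell, ran the other way. It read 7.78 and 7.71 in irradiated ducts, 7.78 and 7.51 in unirradiated ducts, and 6.69 and 6.93 in whole kidney. All 4 duct arrays lay above both kidney arrays. Irradiated ducts were 1.92-fold higher than whole kidney (0.94 ± 0.18, adjusted p = 0.0293), a call that held in 6 of 13 alternatives. Those on these groups alone and without either unirradiated array, which lost the call, are the same fit. Unirradiated ducts minus kidney was 0.84 ± 0.18 and narrowly missed the threshold (adjusted p = 0.0501), and with the arrays centred on the hybridisation controls the sign of this value turned (-0.71, adjusted p = 0.415). Irradiated minus unirradiated ducts was 0.10 ± 0.18 (adjusted p = 0.825).

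A difference between probe sets within an array is unchanged by centring, which adds a constant to all log2 values of the array. Another quantile normalisation can change it. Its size has no meaning of its own, but its shift between groups shows unequal change. The value of cxcl12a (probe set S3) minus cxcr4b was 4.06 and 4.10 in irradiated ducts, 1.63 and 2.32 in unirradiated ducts, and 1.77 and 2.72 in whole kidney. Its mean was 2.10 higher in irradiated than in unirradiated ducts, and the unirradiated ducts overlapped with kidney. Against the scavenger, cxcl12a minus ackr3b was 2.85 and 3.03 in irradiated ducts, 2.86 and 3.29 in unirradiated ducts, and 5.31 and 5.30 in whole kidney. Irradiated ducts therefore stood apart in ligand to Cxcr4b, and both duct groups stood apart from kidney in ligand to scavenger. These differences were not tested. Between the duct groups cxcl12a differed by -0.03 and cxcr4b by -2.13, so the first shift restates the cxcr4b value, which did not pass. In irradiated ducts cxcr4b was near the array medians, so background signal may limit that shift.

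**Figure D3:**
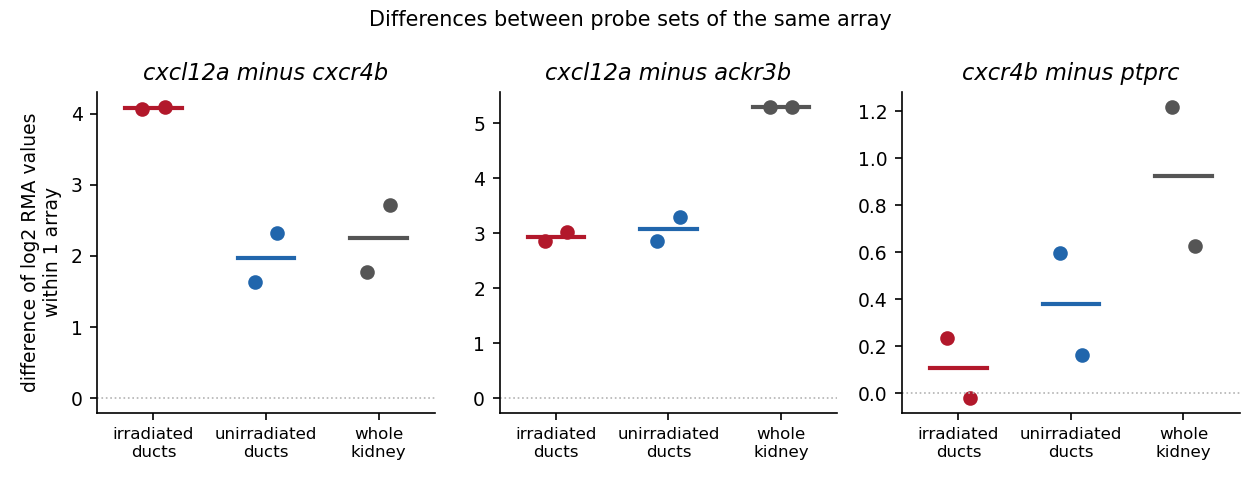
Differences of log2 RMA values between probe sets of the same array (vertical axis) in irradiated ducts, unirradiated ducts and whole kidney, with 1 point per array and a bar at the mean of 2. In the left panel, cxcl12a minus cxcr4b, the irradiated ducts stand at 4.06 and 4.10, above the other 4 arrays. In the middle panel, cxcl12a minus ackr3b, the kidney arrays stand at 5.31 and 5.30, above the 4 duct arrays. In the right panel, cxcr4b minus ptprc, the means are 0.11 in irradiated ducts, 0.38 in unirradiated ducts and 0.92 in whole kidney.

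Because each array holds RNA of many cells, fewer cells of a type and less RNA per cell cannot be told apart. Between the duct groups 11 of the 14 measured leukocyte markers had negative values, as cxcr4b had, and 3 had positive values. Of 14 measured leukocyte genes, 4 fell in irradiated against unirradiated ducts and none rose, where 0.168% of all probe sets were called. The median log2 fold change of the 14 was -1.06, which turns sign with centring on the hybridisation controls, against -0.05 over all probe sets. In this comparison 0 of all probe sets passed once any 1 duct array was left out, with 923 to 1658 at an unadjusted limma p under 0.05. The 4 genes were the lysozyme gene lyz (-2.97 ± 0.16, adjusted p = 0.0149), the T cell receptor gene trac (-2.69 ± 0.21, adjusted p = 0.0272), the mast cell carboxypeptidase gene cpa5 (-2.50 ± 0.25, adjusted p = 0.0461) and ptprc, the gene of the pan-leukocyte phosphatase CD45 (-1.86 ± 0.18, adjusted p = 0.039). In irradiated ducts trac read 4.59 and 4.75, under the array medians, and cpa5 read 5.92 and 5.87, near them. The sizes of both differences are therefore not firm. The mean level of the 14 was 7.11 and 7.44 in irradiated ducts, 8.34 and 8.31 in unirradiated ducts, and 9.05 and 9.08 in whole kidney. As the log2 of their summed linear values it was 12.56 and 13.07 in irradiated ducts, 13.39 and 13.35 in unirradiated ducts, and 14.39 and 14.40 in whole kidney. This sum adds probe sets whose levels are not comparable, and leans on the strongest signal. That was the myeloperoxidase gene mpx in irradiated ducts (11.60 and 12.00). It was lyz in unirradiated ducts (11.99 and 12.20) and whole kidney (13.17 and 13.18). In irradiated ducts 4 of the 14 markers averaged under the array medians, in unirradiated ducts 3 and in whole kidney 3. Their part in the cxcr4b values was not tested.

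Set directly against ptprc, cxcr4b minus ptprc was 0.24 and -0.02 in irradiated ducts, 0.60 and 0.17 in unirradiated ducts, and 1.22 and 0.63 in whole kidney. Arrays of irradiated and unirradiated ducts overlapped here, and the means differed by -0.27, where cxcr4b alone differed by -2.13. In irradiated ducts ptprc read 6.34 and 6.67, near the array medians as cxcr4b was there, so background signal may limit this difference. Against the mean of all 14 markers, the irradiated ducts stood at -0.53 and -0.79, the unirradiated ducts at 0.67 and 0.17, and whole kidney at 1.17 and 0.43. Here the duct groups did not overlap, and the mean in irradiated ducts was lower by 1.08 than in unirradiated ducts. The list is mixed, since the myeloperoxidase gene mpx had a difference of 1.47 between the duct groups, which did not pass (adjusted p = 0.246). Genes cebpa (0.54, adjusted p = 0.646) and marco (0.17, adjusted p = 0.913) also had positive values that did not pass. These 3 were picked for mention because of their values.

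In unirradiated ducts against kidney, where 2.99% of all probe sets were called lower, 3 of the 14 leukocyte markers fell, lcp1, lyz and cpa5, and none rose (median -0.67). In irradiated ducts against kidney, where 4.24% of all probe sets were called lower, 8 fell and none rose (median -1.85). Blood stem and progenitor markers fell for 2 of 6 in unirradiated ducts against kidney, namely the transcription factor genes tal1 (-2.20 ± 0.34, adjusted p = 0.024) and myb (-1.15 ± 0.24, adjusted p = 0.0466), and for 3 of 6 in irradiated ducts against kidney. The tal1 signal in unirradiated ducts, 3.81 and 4.03, was under the array medians, which leaves its size uncertain. The list is mixed, since in unirradiated ducts against kidney 2 of the 6 had positive values, up to 0.65, that did not pass. In each duct group 3 of the 6 averaged under the array medians, and in whole kidney 1. Between the duct groups 0 of 6 passed in limma (2 at an unadjusted p under 0.05), and 4 values were negative and 2 positive. Their median was -0.33, which turns with the same centring. There myb read 6.04 and 6.11 in irradiated ducts, 7.06 and 6.47 in unirradiated ducts, and 7.79 and 8.05 in whole kidney, in the same order as cxcr4b (irradiated minus unirradiated ducts -0.69 ± 0.24, adjusted p = 0.309, and likewise turned by the centring). Erythroid markers fell for 5 of 9 in unirradiated ducts against kidney (median -2.20), and 0 of 9 passed between the duct groups (1 at an unadjusted p under 0.05, median 0.24).

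Markers that could stand for the sources of Cxcl12 were considered beside cxcl12a. Of 10 endothelial and stromal genes, 3 rose in unirradiated ducts against kidney, where 7.26% of all probe sets were called. They were tagln (3.99 ± 0.64) and acta2 (3.67 ± 0.73) of smooth muscle, and postnb of the extracellular matrix (3.99 ± 0.79), with adjusted p between 0.0255 and 0.0426. The endothelial receptor gene tie1 fell (-1.02 ± 0.22, adjusted p = 0.0482), with signals of 4.82 and 5.08 in unirradiated ducts that lie under the array medians. The list is mixed. The collagen genes col1a1a (1.86, adjusted p = 0.0917) and col1a2 (2.03, adjusted p = 0.0597) had positive values that did not pass, the endothelial transcription factor gene fli1a had -0.54 (adjusted p = 0.174), foxc1b -0.48 (adjusted p = 0.321) and prrx1b -0.14 (adjusted p = 0.624), and the endothelial receptor gene kdrl had 0.07 (adjusted p = 0.865). The mean level of the 10 was 8.66 and 9.11 in irradiated ducts, 8.81 and 8.74 in unirradiated ducts, and 7.97 and 6.89 in whole kidney, a mean over genes that did not move together. Proximal tubule markers fell for 3 of 6 in unirradiated ducts against kidney (median -1.47). Their mean level was 7.86 and 8.21 in irradiated ducts, 7.42 and 8.47 in unirradiated ducts, and 9.15 and 9.89 in whole kidney. All 4 duct arrays thus lay under both kidney arrays, as for cxcl12a. The mean levels of the leukocyte, erythroid and blood stem and progenitor markers had this order too, so it is not particular to proximal tubule markers. The part of these cells in the cxcl12a values was not tested.

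**Figure D4:**
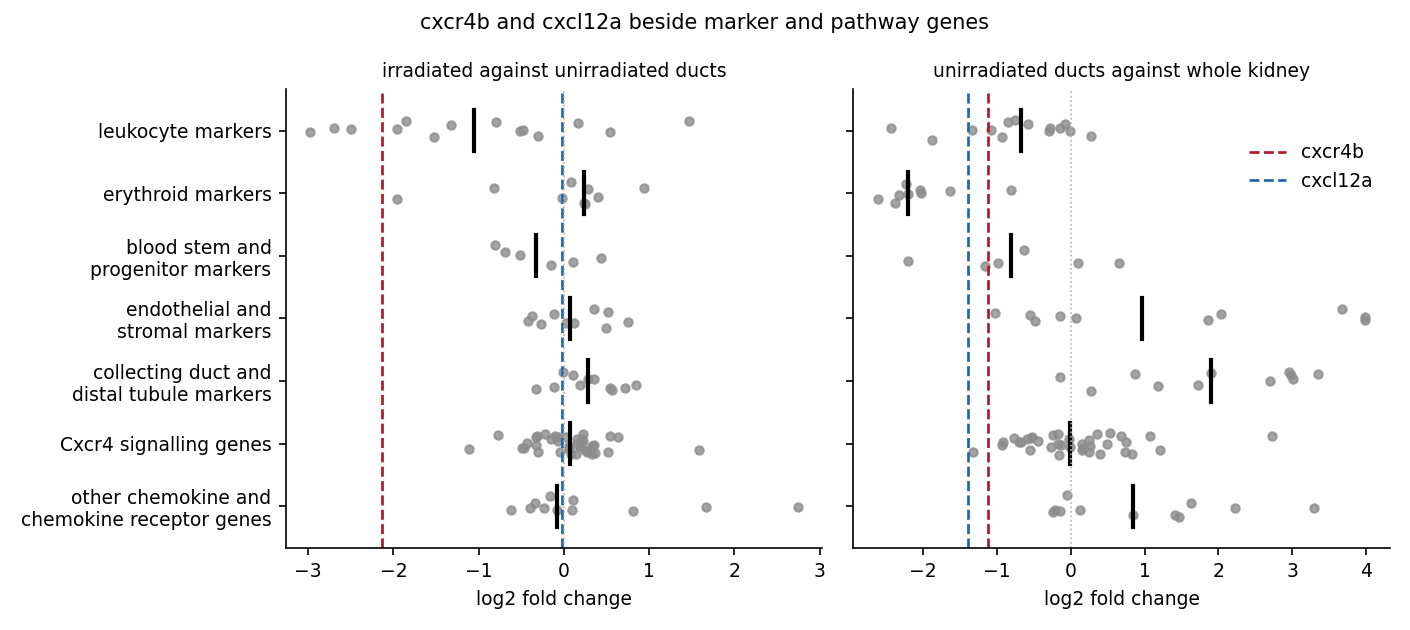
Log2 fold changes (horizontal axis) of single genes, grouped by marker or pathway list (1 grey point per gene, black bar at the median), for irradiated against unirradiated ducts and unirradiated ducts against whole kidney, with dashed lines at cxcr4b and at cxcl12a (probe set S3). In the left panel the cxcr4b line at -2.13 lies below the leukocyte median of -1.06 and among the lowest leukocyte genes, and the cxcl12a line is at -0.03, where the medians of the other lists shown run between -0.33 (blood stem and progenitor) and 0.29 (collecting duct); these values are relative to the median transcript, and the cxcl12a value turns sign with centring on hybridisation controls.

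Genes that act around Cxcl12 were counted next, among them alternative ligands and receptors, proteases that cut the chemokine and hypoxia factors that induce it. Of 15 measured besides the members, 0 passed in irradiated against unirradiated ducts (3 at an unadjusted p under 0.05, median -0.009). In unirradiated ducts against kidney 1 of 15 fell, the hypoxia factor gene epas1a (-1.06 ± 0.21, adjusted p = 0.0428), and none rose. That is 6.67% of the list, near the 7.26% of all probe sets called. The other measured hypoxia factor genes did not pass there, epas1b at 1.55 (adjusted p = 0.0996) and hif1ab at -0.25 (adjusted p = 0.562). In irradiated ducts against kidney 3 rose and 4 fell, with a median of 0.29, where 10.5% of all probe sets were called. Those that rose were ackr3b, the cathepsin gene ctsk (1.66 ± 0.22, adjusted p = 0.0115) and the gelatinase gene mmp2 (1.98 ± 0.44, adjusted p = 0.0442). Among those that fell were the collagenase gene mmp13a (-2.22 ± 0.43, adjusted p = 0.0299) and the other gelatinase gene, mmp9 (-1.39 ± 0.23, adjusted p = 0.0208). The protease genes thus went both ways.

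Downstream of the receptor, 0 of 36 measured Cxcr4 signalling genes passed in irradiated against unirradiated ducts, and 6 had an unadjusted p under 0.05, with a median of 0.07. Those 6 are 16.7% of the list, near the 14.3% of all probe sets at that p. In unirradiated ducts against kidney 2 rose, the focal adhesion kinase gene ptk2aa (1.22 ± 0.24, adjusted p = 0.0402) and the MAP kinase kinase gene map2k1 (1.07 ± 0.16, adjusted p = 0.0226), and 1 fell, rgs14a, a gene of a protein that switches off G proteins (-0.93 ± 0.16, adjusted p = 0.0324). Both rises turn with centring on hybridisation controls. The 3 called genes are 8.33% of the list, near the 7.26% of all probe sets called, so the count is no result about the pathway. In irradiated ducts against kidney 3 rose and 3 fell, 16.7% of the list against 10.5% of all probe sets. The inhibitory G protein gene gnai2b (-1.02 ± 0.19, adjusted p = 0.0278) and the Rac activator gene elmo1 (-1.39 ± 0.24, adjusted p = 0.0223) fell there with rgs14a (-2.04 ± 0.16, adjusted p = 0.00304). The kinase genes map2k1 (1.15 ± 0.16, adjusted p = 0.0128), pak1 (0.80 ± 0.17, adjusted p = 0.0406) and mapk3 (0.67 ± 0.15, adjusted p = 0.046) rose there. The level of rgs14a was 3.96 and 3.72 in irradiated ducts, 4.99 and 4.91 in unirradiated ducts, and 5.84 and 5.93 in whole kidney. The duct values were below the array medians and the kidney values near them, and map2k1 in whole kidney (5.31 and 5.23) was also below them, so background signal limits the size of these differences.

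Other niche ligand and adhesion genes had values in both directions, many of them at low signal. Of 11 measured, 2 rose and 2 fell in unirradiated ducts against kidney, where 7.26% of all probe sets were called. The prostaglandin synthesis gene ptgs2a rose (1.62 ± 0.17, adjusted p = 0.00979), as did the Notch ligand gene jag1b (1.58 ± 0.30, adjusted p = 0.0377), while the P-selectin gene selp (-1.20 ± 0.22, adjusted p = 0.0359) and tie1 fell. For ptgs2a the signals were 5.66 and 5.54 in unirradiated ducts and 3.99 and 3.96 in whole kidney. For selp they were 4.28 and 4.33 in unirradiated ducts and 5.39 and 5.62 in whole kidney. All of these lie under the array medians, neither group is shown to be above background, and the sizes are not to be relied on. For tie1, which is also in the endothelial and stromal list, they were 4.82 and 5.08 in unirradiated ducts and 6.15 and 5.80 in whole kidney. These are under or near the medians, so neither fall is shown to be above background. Of the 11, 7 averaged under the array medians in unirradiated ducts and 6 in whole kidney. Between the duct groups 0 of 11 passed (3 at an unadjusted p under 0.05, median 0.22).

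Of 11 other chemokine and chemokine receptor genes measured, none was called lower in the ducts against kidney. Over all probe sets 2.99% were called lower in unirradiated ducts against kidney and 4.24% in irradiated ducts against kidney. None in a list of 11 is near those shares and does not set cxcl12a apart. In whole kidney 5 of the 11 averaged under the array medians, where background signal limits any fall. In unirradiated ducts against kidney 4 rose, where 7.26% of all probe sets were called. The median of the 11 was 0.84, which turns with centring on the hybridisation controls, against 0.01 over all probe sets. It is the value of ackr3b given above, a gene that is in this list too. The epithelial chemokine gene cxcl14 read 10.45 and 10.61 in irradiated ducts, 10.66 and 10.20 in unirradiated ducts, and 7.26 and 7.01 in whole kidney (unirradiated ducts against kidney 3.29 ± 0.22, adjusted p = 0.00429). The lymphoid tissue chemokine family gene ccl19a.1 (2.23 ± 0.24, adjusted p = 0.0107), ccl25b (1.46 ± 0.31, adjusted p = 0.0474) and cxl34b.11 (1.41 ± 0.23, adjusted p = 0.0256) were the others, and the last 2 turn with centring on hybridisation controls. After irradiation 1 of the 11 rose in the ducts, where 0.168% of all probe sets were called. This was cxl34b.11, at 9.51 and 9.75 in irradiated ducts, against 6.96 and 6.82 in unirradiated ducts (2.75 ± 0.23, adjusted p = 0.0276). In irradiated ducts against kidney, where 10.5% of all probe sets were called, 5 rose and none fell, with ccl19a.1 at 3.89 ± 0.24 and cxl34b.11 at 4.16 ± 0.23. These 5 include ackr3b, already counted among the genes that act around Cxcl12, so the lists are not separate.

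Genes whose levels ran most like each member were found by Pearson's r over the 6 arrays among 2602 probe sets with a mean of at least 6 and a range of at least 1, and r is given as a description of arrays that share 3 groups. For cxcl12a (probe set S3) they were lrrc15 (r = 0.998), aldh9a1b, cryl1, adh5 and ace (r = 0.988). For cxcl12b they were stau2 (r = 0.982), glula, sumo3a, rrs1 and naa15a (r = 0.940). For cxcr4a they were a probe set of the G protein subunit gene gnb1a (r = 0.974), with pafah1b3, ndrg4, pon2 and rrm1 (r = 0.963). The other gnb1a probe set, used in the signalling list, did not run this way, at 9.75 and 9.96 in irradiated ducts, 9.51 and 9.78 in unirradiated ducts, and 8.87 and 9.42 in whole kidney. For cxcr4b they were the proliferation antigen gene mki67 (r = 0.993), sypl2b, the replication factor gene rfc4, the profilin gene pfn1 and the phagocyte oxidase gene ncf1 (r = 0.983). The nearest of these, mki67, read 5.65 and 5.45 in irradiated ducts, 7.10 and 6.77 in unirradiated ducts, and 8.13 and 7.35 in whole kidney, without overlap and in the order of cxcr4b, with the irradiated ducts under the array medians. Among the members themselves, the cxcl12a probe sets had r = 0.981 with each other, cxcl12a (probe set S3) and cxcr4b had r = 0.733, and cxcl12b and cxcr4b had r = -0.256.

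**Figure D5:**
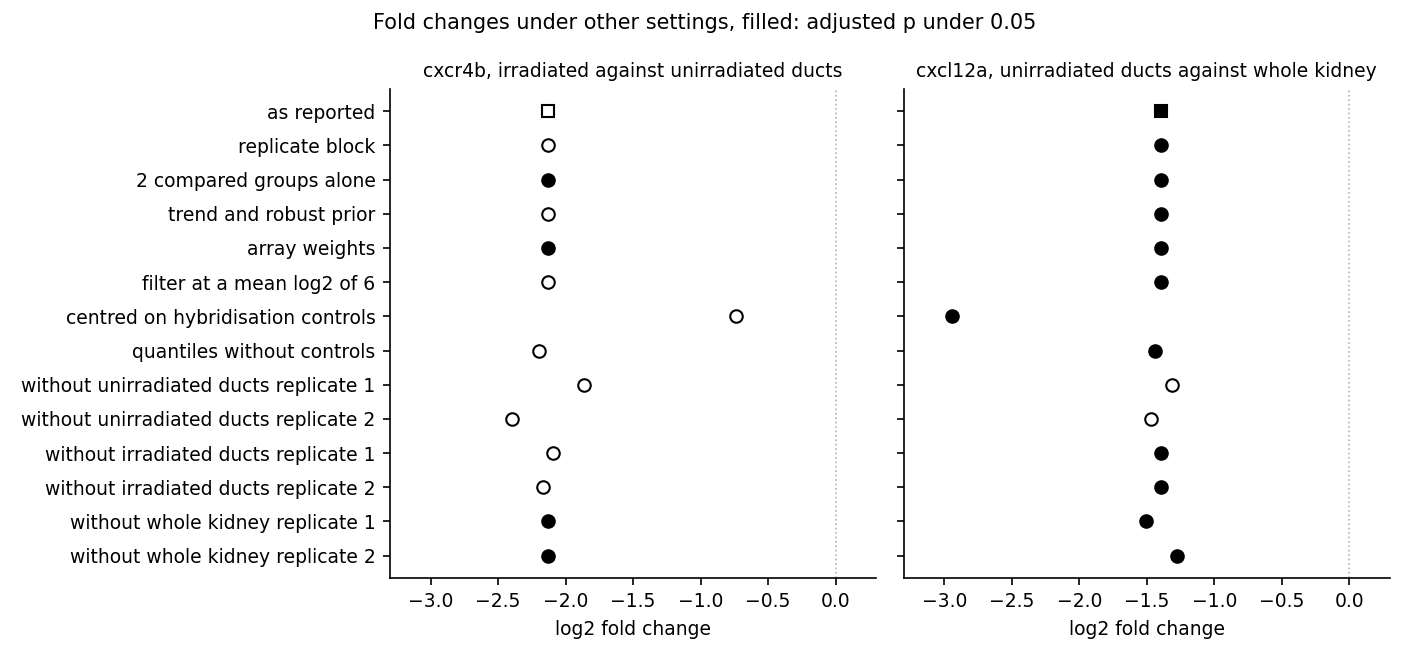
Log2 fold changes (horizontal axis) of cxcr4b in irradiated against unirradiated ducts and of cxcl12a (probe set S3) in unirradiated ducts against whole kidney under each setting tried (vertical axis), with a square for the reported value and filled symbols where the adjusted p is under 0.05. For cxcr4b the value was -0.74 with centring on hybridisation controls, and 4 of 13 alternatives passed, of which the fit on these groups alone and those without a kidney array are the same fit. For cxcl12a the value with that centring was -2.94, and the 2 open circles are the fits without either unirradiated array.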

How the data were processed

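The authors deposited log2 expression values. Per the submitters' processing notes they used RMA and affy, with versions not stated. In RMA the probes of a probe set are summarised after background correction and quantile normalisation of all arrays together. The number of arrays limits the precision. Nothing says the pools came from separate experiments beyond the design's word independent, so p-values measure the spread between these arrays.

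The table held 15617 probe sets, 115 of them array controls, which entered no test. Of the 15502 tested, 10795 named 1 gene, 135 several and 4572 none, by the platform's probe table with symbols updated through a current zebrafish gene table used for names alone. In R (version 4.3.3), limma (version 3.58.1) fitted all 6 arrays, 1 mean per group, with 3 residual and 2.83 prior degrees of freedom. Tests were two-sided, with Benjamini-Hochberg adjustment across every tested probe set. With 2 arrays a group, exact permutation p-values start at 0.333, so none was used. SE is moderated. The fit was tested on simulated data in which a probe set had the same spread in every group. Unequal spread between groups, as between kidney and duct arrays here, was therefore not covered.

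A listed gene with several probe sets took the one with the highest mean over all arrays. Per list and comparison the rule named up to 4 genes past the threshold with the smallest p, or the 2 with the smallest p where fewer passed, and always ackr3b, ptprc, lyz, myb and f11r.1. The text gives a selection of these. The members, lists and rule were chosen with earlier results of these data known. Podocyte, interrenal and skeletal muscle markers were measured as well. Of these, 4 of 7 muscle genes rose in unirradiated ducts against kidney, where 7.26% of all probe sets were called. Between the duct groups all 7 had negative values and 0 passed (3 at an unadjusted limma p under 0.05). Their median was -0.60, which turns with centring on the hybridisation controls. Their mean level was 6.71 and 6.71 in irradiated and 7.21 and 7.88 in unirradiated ducts. Whether attached tissue differed between the duct groups was not tested. In unirradiated ducts against kidney 0 of 2 podocyte and 0 of 6 interrenal genes passed, with 0 at an unadjusted limma p under 0.05. In every group all 6 interrenal genes and 1 of the 2 podocyte genes averaged under the array medians. For these, background signal could hide a difference.

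Alternatives were a replicate block, the compared groups alone, a trended robust prior, a filter at a mean log2 of 6, array weights, centring on hybridisation controls, quantiles without array controls, leaving out each array, and the other probe set of cxcl12a.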

Additional observations from a re-analysis of the deposited data

How the results depend on the processing

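Of 198 alternative values for the 15 member results, 165 kept their direction and their side of the threshold. These values include repeats, since leaving out an array of the third group is the same fit as the compared groups alone. Counts over all probe sets moved more: in irradiated against unirradiated ducts (26) they were 0 with the replicate block, 217 with the groups alone, 243 with array weights, 9 with the filter and 147 with control centring, and 0 to 217 without 1 array. In unirradiated ducts against kidney (1126) they were 422 with the groups alone, 615 with weights, 1935 with centring (35 higher, 1900 lower, against 662 higher and 464 lower as deposited), and 0 to 3373 without 1 array. In irradiated ducts against kidney (1620) they were 783 with the groups alone, 202 with centring (120 higher, 82 lower) and 308 to 3183 without 1 array. Centring turned cxcl12a (1.36) and cxcr4a (0.76) between the duct groups and brought cxcr4a (-2.45, adjusted p = 0.0339) and cxcr4b (-2.67, adjusted p = 0.0224) past the threshold in unirradiated ducts against kidney; in irradiated ducts against kidney cxcl12a lost its call (-1.58 and -1.85). The other cxcl12a probe set turned the value between the duct groups (0.27). Fitting the groups alone brought cxcr4b between the duct groups past the threshold (-2.13), as did array weights (-2.13), and took probe set S2 out (-1.96 and -1.69 against kidney). The cause was not tested. Values near the array medians, as for cxcr4a and, in irradiated ducts, cxcr4b, are limited by background.

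Without 1 array, irradiated minus unirradiated ducts ranged from -0.107 to 0.053 for cxcl12a, from -1.45 to 0.19 for cxcr4a and from -2.40 to -1.86 for cxcr4b. Unirradiated ducts minus kidney ranged from -1.50 to -1.28 and -2.30 to -1.61 for the cxcl12a probe sets, -0.867 to -0.004 for cxcl12b, -1.87 to 0.061 for cxcr4a and -1.48 to -0.76 for cxcr4b. Irradiated ducts minus kidney ranged from -1.53 to -1.31 and -2.03 to -1.35 for cxcl12a, -0.22 to 0.64 for cxcl12b and -2.50 to -0.57 for cxcr4a. The replicate numbers are not said to pair arrays, and deviations of same-numbered arrays correlated at -0.0976, -0.0972 and 0.0633. The replicate block changed 0 of 15 member calls (cxcr4b between the duct groups, adjusted p = 0.131), and ackr3b in irradiated ducts against kidney lost its call (adjusted p = 0.0563). For ackr3b, irradiated minus unirradiated ducts was -0.007 with quantiles without controls and -0.033 to 0.239 without 1 array, and unirradiated ducts minus kidney was -0.71 with centring.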
